A study of Sus scrofa with 40 samples.

Results

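CAST encodes calpastatin, the specific inhibitor of the calpains, which are calcium-dependent proteases of the cytosol. In skeletal muscle the calpains cut proteins that hold the sarcomere in place, and calpastatin binds to calpain once calcium has opened the enzyme. After slaughter the balance of calpain and calpastatin is known as a main determinant of how fast meat becomes tender. Calpastatin transcripts are known to start at several promoters and to differ in their first exons. CAST was measured by 1 of the 15198 gene probes of the array, CJ016034.1_268, and was 1 of the 598 genes for which a symbol was at hand. The scanner output names no gene, and the symbol came from the probe column of the study's list of probes higher in LW pigs. CAST was therefore chosen by the study for its lower level in Basque pigs, and its direction here is not independent evidence.

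Longissimus muscle RNA of 40 castrated male pigs was measured, 20 of the local Basque breed (B) and 20 of the Large White breed (LW). In each breed 10 pigs were kept in conventional housing, indoors on a slatted floor, and 10 in alternative housing, with indoor bedding and an outdoor area. All pigs were slaughtered at about 145 kg live weight, and B pigs were older at that weight. Feed at a given weight was equal in both breeds, although the paper gives LW pigs the larger appetite and growth potential. Breed, age and feeding therefore cannot be told apart. On each array 1 pig's RNA carried the green dye Cy3 and was set against the red dye Cy5 on a mixture of RNA from the 40 animals, and the dyes were never exchanged. Litters gave 2 pigs each, assigned to either housing system, but litter is not in the labels used here. The tests treat littermates as independent, so that any pairing of the housing systems by litter is not used. Correlations between arrays over the 12222 tested probes lay between -0.34 and 0.83, and the direction was kept on all arrays because the methods state the dyes.

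The CAST probe has 60 bases, of which 51.7% are G or C. Bases 31 to 60 are shown because they hold the only ATG of the probe, in capitals, and no stop codon is in frame among the 8 codons that run from it to the probe's end.
CJ016034.1_268: ccagtATGaatcccacagaaaccaaggctg
Which calpastatin transcripts the probe reads was not tested, since no transcript sequence was used here. The RefSeq annotation of Sscrofa11.1 lists 28 transcripts of CAST, and ERAP1 and PCSK1 are its nearest protein-coding neighbours. None of the 10 nearest neighbours had a probe with a symbol at hand. No other probe shared a stretch of 15 bases with the CAST probe on either strand, and 0 other probes came from the same contig, so that its values could not be compared with a second probe of the gene.

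CAST was well above background in both channels on all 40 arrays, and its spot was never marked as an outlier or as saturated. On the linear scale of the scanner the Cy3 signal of CAST had a median of 139 in B pigs, with extremes of 104 and 192. In LW pigs its median was 173, with extremes of 121 and 284. The local Cy3 background had a median of 44 in both breeds, so that the spot was between 2.33 and 4.46 times as bright as its background in B pigs and between 2.69 and 5.67 times in LW pigs. The B range lay mostly inside the LW range. The median Cy3 signal of an array was 146 in B and 142 in LW pigs (medians over arrays), and the rank of CAST among the spots was not taken.

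CAST values are given as log2 ratios of pig to pool after the median of each array was subtracted. In B pigs of the conventional system they ran from -0.40 over a median of 0.028 to 0.35, with a mean of -0.032 ± 0.25 (SD, n = 10). In B pigs of the alternative system they ran from -0.68 over -0.12 to 0.056, with a mean of -0.19 ± 0.24 (SD, n = 10). The lowest CAST value of all pigs belonged to this group, and only 1 of its 10 pigs lay above 0.

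LW pigs of the conventional system had CAST values from -0.062 over a median of 0.20 to 0.70, with a mean of 0.24 ± 0.24 (SD, n = 10). LW pigs of the alternative system had values from -0.19 over 0.081 to 0.66, with a mean of 0.16 ± 0.27 (SD, n = 10). In both LW groups 8 of 10 pigs lay above 0. The order of the group means was LW conventional, LW alternative, B conventional and B alternative, and each mean lay within 1 SD of its neighbours in that order.

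**Figure D1:**
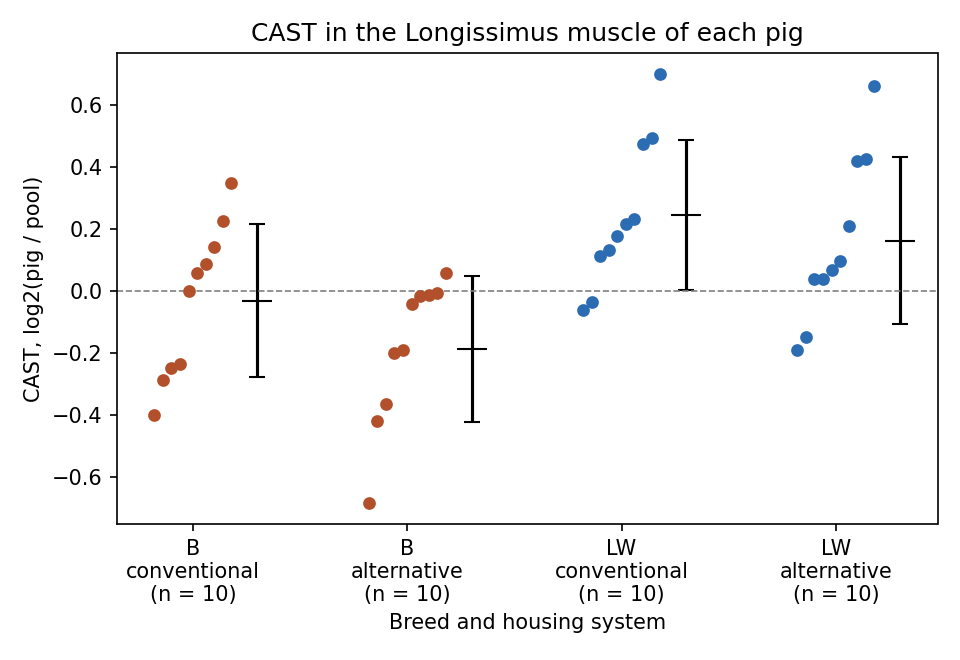
Each point is the CAST log2 ratio to the pool of 1 pig, on the vertical axis, for the 4 groups of 10 pigs on the horizontal axis, with black marks for the mean ± SD. Both LW means (0.24 and 0.16) lie above both B means (-0.032 and -0.19), and the groups overlap.

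CAST was lower in B than in LW pigs. Over both housing systems the B mean was -0.11 ± 0.25 and the LW mean 0.20 ± 0.25 (SD, 20 pigs per breed), and the breeds overlapped widely. In the limma model with slide the CAST difference, B minus LW, was -0.34 (SE 0.071, 95% confidence interval -0.48 to -0.19, adjusted p = 7.49e-04). In this setting, which adds an offset of 50 to both channels, LW pigs had 1.26 times the level of B pigs (interval 1.14 to 1.39). The median of LW pigs for CAST was undercut by 18 of 20 B pigs, and 12 lay within the LW range. A probe is called here at a Benjamini-Hochberg adjusted p under 0.05 over the tested probes. Of all tested probes 21.1% were called between the breeds, and 9.49% were called lower in B pigs, so that a call was common on these arrays. Among the 1160 probes called lower in B pigs 327 differed at least as much as CAST, and their median difference was -0.24. Without background correction the CAST difference was -0.33. That setting nearly repeats the main one, whose offset of 50 is near the local Cy3 background of 44, so it tests background little. The CAST difference was -0.53 with Agilent's processed signals and -0.52 with the authors' series matrix values. Both lie outside the interval of -0.48 to -0.19, which does not cover the choice of processing. It was -0.25 and no longer called (adjusted p = 0.0632) when the Cy3 intensity after quantile normalization replaced the ratio.

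Within conventional housing the CAST difference between breeds was -0.32 (SE 0.10, adjusted p = 0.0384), where 8.24% of tested probes were called, and 8 of 10 B pigs were under the median of LW pigs. Within alternative housing it was -0.35 (SE 0.10, adjusted p = 0.0281), where 7.58% were called, and 10 of 10 B pigs were under that median. Both CAST calls lay near the threshold. The CAST call in conventional housing was lost in 6 of 16 other settings, with differences from -0.29 to -0.27, and that in alternative housing in 1 of 16, at -0.24. Each of the 2 calls was also lost in 5 of 7 fits that left out a slide (adjusted p up to 0.230 and 0.131). The first was lost without any 1 of 11 pigs and the second without any 1 of 6, with sizes that stayed between -0.37 and -0.28 and between -0.43 and -0.28.

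The study also asked whether housing changes muscle expression. For CAST the difference of alternative minus conventional housing was -0.16 in B pigs (SE 0.10, 95% interval -0.36 to 0.045, adjusted p = 0.999) and -0.14 in LW pigs (SE 0.10, 95% interval -0.35 to 0.074, adjusted p = 1.00), by limma. These sizes moved with the processing, to -0.32 in B pigs with Agilent's processed signals and to -0.24 in LW pigs with the series matrix values, but to -0.082 in LW pigs with no slide term or with the two-step analysis of the methods. In B pigs the CAST difference was -0.10 without B alternative replicate 17, -0.099 without slide 5 and -0.097 without slide 7. In LW pigs it was -0.065 without LW alternative replicate 19 and -0.042 without slide 4, but -0.21 without slide 5. Neither passed the threshold, and both intervals leave room for a lower CAST level in alternative housing of about the size of the breed difference. The interaction of breed and housing for CAST was -0.022 (SE 0.14, 95% interval -0.31 to 0.27, adjusted p = 0.995). A difference between the breed effects in the 2 systems was thus not detectable with these pigs in this model, which holds no litter.

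The breed difference of CAST lay in the pig's channel. With each channel taken alone and fitted by limma, the Cy3 level of CAST differed by -0.33 between breeds (SE 0.074, adjusted p = 0.00295). Within conventional and alternative housing the Cy3 level of CAST differed by -0.29 (adjusted p = 0.189) and -0.38 (adjusted p = 0.0507), and neither was called. The Cy5 level, which reads the same pool on every array, differed by 0.0028 (SE 0.032, adjusted p = 1.00).

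There were 7 slides, each with arrays of both breeds, and 3 scan days. CAST was lower in B pigs on 7 of 7 slides. The CAST difference within a slide was smallest on slide 4, at -0.19 between 4 B and 2 LW pigs, and largest on slide 6, at -0.49 between 4 B and 3 LW pigs. On slide 2, which held 1 B and 1 LW pig, it was -0.46, a difference between single pigs. On slides 1, 3, 5 and 7, with 2 or 3 B and 3 or 4 LW pigs, it was -0.32, -0.21, -0.37 and -0.32. By scan day the CAST difference was -0.32, -0.40 and -0.19.

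**Figure D2:**
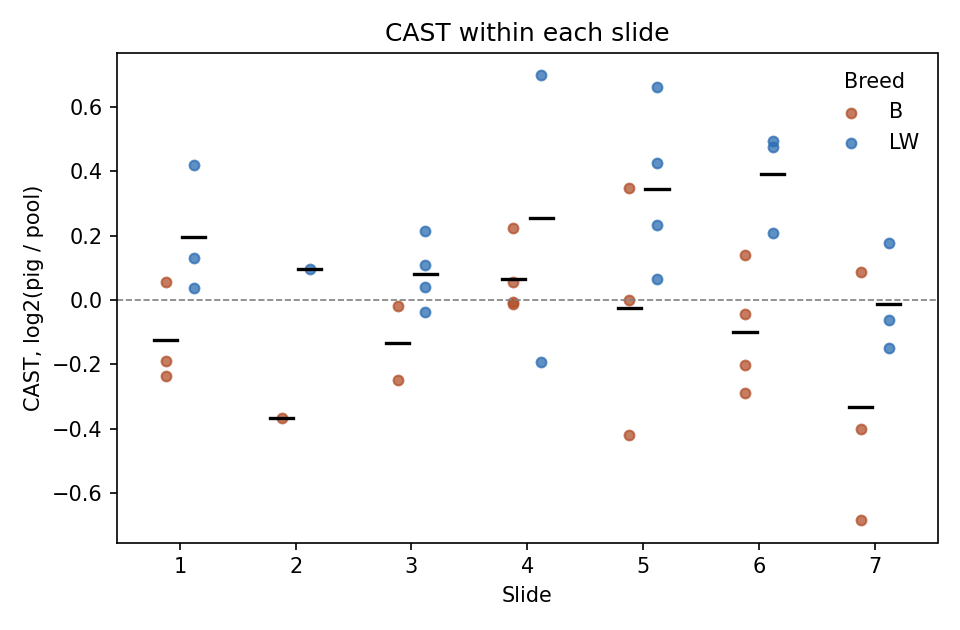
Points are the CAST log2 ratios to the pool of single pigs, on the vertical axis, by slide on the horizontal axis and coloured by breed, with black bars for the mean of each breed on a slide. The B mean lies below the LW mean on each of the 7 slides.

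CAST also varied between pigs of the same breed and housing system. Its residual SD in the model was 0.23, above that of 73.6% of the tested probes, whose median was 0.17. No CAST value stood apart from the other 9 pigs of its group.

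The other named genes all came from the same list of the study, so that each was lower in B pigs by the way the list was made, and their counts are no independent evidence. Of the 683 probes with a symbol 73.9% were called, and the count of each list is to be read against that share. Of the 14 other list probes called, 10 lost the call when the Cy3 intensity after quantile normalization of the Cy5 channel replaced the ratio, the setting in which CAST lost its own. With the ratio 5 of the 14 were lost without slide 1, 4 without slide 7, 3 without slide 4, 2 without slide 5 or 6 and 1 without slide 2 or 3, where CAST was called each time. With the replicate number as a block 4 were lost (CAPN10, PSME1, PSME2 and 1 of COL1A2), and CAST was called. Of 15 symbols of the calpain system only CAST and CAPN10, an atypical calpain, had a named probe. CAPN10 differed by -0.31 (SE 0.093, adjusted p = 0.0163) and was called, but not with that intensity (-0.26, adjusted p = 0.0656) nor, unlike CAST, without slide 1, 3, 4 or 5 (adjusted p from 0.0504 to 0.0606). Over the 40 pigs, with group and slide removed, CAPN10 and CAST had r = -0.408 (rho = -0.427, and r = -0.369 without the 2 pigs farthest from the CAST median), which lies inside the percentiles 5 and 95 of r with CAST over all probes compared (-0.442 and 0.363). Among the proteins that calpains cut, the tropomyosin genes TPM1 (-0.26) and TPM3 (-0.23) were called, but gave -0.042 and -0.15 with the Cy3 intensity and were not called there (nor TPM3 without slide 1), and nebulin, NEB, at -0.22 (adjusted p = 0.176), was not. The activator subunits of the proteasome, PSME1 (-0.23) and PSME2 (-0.30), were both called, and neither was with the Cy3 intensity (-0.18 and -0.23), nor PSME1 without slide 1 or 7. Cathepsin K, CTSK, at -0.090 was not called (adjusted p = 0.117), although it was called with Agilent's processed signals (-0.33, adjusted p = 0.00123), the series matrix values, loess and array weights, without LW alternative replicate 18, alone or with B alternative replicate 15, and without slide 5. Of the other protease inhibitors SERPINE2 was called, at -0.30, and SERPINC1, at -0.10, was not. SERPINE2 was not called with the Cy3 intensity or without slide 4, both at -0.24. It was -0.49 with Agilent's processed signals and -0.46 with the series matrix values, and was called with both. The SERPINC1 value moved to -0.28 and was called with Agilent's processed signals (adjusted p = 0.0255), and was -0.42 with the series matrix values, -0.23 with outlier spots kept and -0.032 with the Cy3 intensity, not called. The genes of cyclic AMP signalling PRKAR1A (-0.34), PDE4B (-0.30) and PRKACB (-0.14) were called. Of these PRKAR1A alone was also called with the Cy3 intensity, where PDE4B gave -0.28 and PRKACB -0.065. With Agilent's processed signals PDE4B gave -0.50 and PRKACB -0.29, both called. The PDE4B call was also lost without slide 5, 6 or 7 and without B conventional replicate 8, and the PRKACB call with no slide term (adjusted p = 0.0606), without slide 1, 6 or 7 and without any 1 of 8 pigs.

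Levels in whole muscle depend on its cells, and fewer cells of a type cannot be told apart from less RNA per cell. Of 5 probes of fibroblast and matrix markers 3 were called lower in B pigs, with a median difference of -0.38, against 2 with the Cy3 intensity or the replicate block. The count was 4, through a second COL1A2 probe, with Agilent's processed signals, no background correction, loess, series matrix values or array weights, and that probe was also called without slide 3 and without B or LW conventional replicate 8. The call lost with the Cy3 intensity, of the first COL1A2 probe (adjusted p = 0.0687), was also lost without slide 1, 2, 4 or 7 and without any 1 of 9 pigs. Of 2 skeletal muscle markers MYH1 was called, at -0.66 (-0.32 and not called with the Cy3 intensity), and ACTA1, at -0.29, was not, while of 2 smooth muscle and pericyte markers PDGFRB was called, at -0.31, and ACTA2, at -0.27, was not. Both ACTA1 and ACTA2 were called with array weights (-0.33 and -0.32) and without slide 6 (-0.45 and -0.47). Both were also called without LW conventional replicate 8 (-0.45 and -0.42), a pig at -3.20 and -2.75 for these genes. With the Cy3 intensity they gave -0.044 and -0.22, not called. Their part in the CAST result was not tested. The short lists used here for adipocytes (8 symbols), endothelium (6), macrophages and leukocytes (8), red blood cells (5), satellite cells (3) and caspases with their inhibitors (15) had no member with a symbol at hand, which says nothing of other genes of those cells.

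Likeness to CAST was measured over the 40 pigs on the residuals from group and slide, among 12031 probes, whose median r with CAST was -0.0395. The values are a description, since the probes were picked for them, and all share the arrays and their normalization. SRSF5, a splicing factor, ran with CAST at r = 0.691 (rho = 0.647, r = 0.608 without the 2 farthest pigs), and ZNF274, a zinc finger repressor, at r = 0.689 (rho = 0.718, r = 0.672). The probe most like CAST, DN110905.1_723, had r = 0.697 (rho = 0.650, r = 0.643). Relations of opposite direction were closer, led by BX669512.1_569 with r = -0.864 (rho = -0.858, r = -0.843). Of the 10 probes most like CAST 2 had a symbol, and of the 5 most opposed to it 0.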

How the data were processed

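The authors deposited, for each array, the scanner output of Agilent Feature Extraction 9.5, with the intensity of each spot before normalization and Agilent's processed intensities. They also deposited log2 ratios in a series matrix, which on most arrays followed the processed intensities (median r = 0.994, slope 0.948) as pig over pool. B alternative replicate 15 (r = 0.68, slope 0.279) and LW alternative replicate 18 (r = 0.833, slope 0.463) did so least. Its values were centred near 0, with array medians from -0.015 to 0.026. Breed, housing system and replicate number came from the labels, and 0 columns were unmapped. The normexp method of limma 3.58.1 (R 4.3.3, offset 50) served for background correction, and 2396 outlier spots were left out while 83 saturated spots were kept. A probe needed 10 arrays of either breed with a Cy3 signal well above background to be tested. The limma model held the 4 groups and slide. The members and lists were chosen with earlier results of these data known. Named were CAST, calpain system probes, called list members (at most 5 a list and direction), NEB, and the probes most like CAST. CTSK, SERPINC1, ACTA1, ACTA2 and DCN are other list members, which were not called and were added after their values were seen. The second COL1A2 probe, not called either, was also named. FBXO32, TRIM63, CTSD, TTN and DES had no usable symbol here. In the study's list of probes higher in B pigs, 0 of 37 contigs with several probes carried a single symbol, against 40 of 40 in the other list, so that it was not used for names. Programs were tested on simulated data. Alternatives covered background, normalization, filters, slide, weights, pairing and left-out arrays. Precision is limited by the number of arrays.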

Additional observations from a re-analysis of the deposited data

Results flagged for a closer look

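No CAST group held a pig far from the rest. Among 96 groups, 4 for each of 24 named probes and of 10 pigs each except 1 group of 9 for SERPINC1, 13 held 1 pig whose gap to its nearest neighbour was large against the group's range, and chance gives about 1 in 20. LW conventional replicate 8 was far below its group for ACTA1 (-3.20), ACTA2 (-2.75), CAPN10 (-1.12), COL1A2 (-1.56) and both probes of DPT (-1.35 and -0.93). Without this pig the CAST difference between breeds was -0.33 (adjusted p = 0.00137), while ACTA1 and ACTA2 became called, at -0.45 and -0.42. Single pigs also stood apart for DCN (B conventional replicate 10 at -0.91 and LW alternative replicate 13 at -1.03), TPM1 (B conventional replicate 10 at -1.02), TPM3 (LW alternative replicate 13 at -0.77), PRKAR1A (B alternative replicate 15 at -1.33), SERPINC1 (LW conventional replicate 4 at 0.69) and SRSF5 (B conventional replicate 5 at 0.49).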

How the results depend on the processing

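The CAST difference between breeds was negative in 16 of 16 other settings and called in 15, from -0.53 to -0.25 (adjusted p from 3.94e-04 to 0.0632). It was lost only with the Cy3 intensity after quantile normalization of the Cy5 channel, without subtraction of the array median (-0.25). There the differences within conventional and alternative housing were -0.27 and -0.24 and the interaction was 0.025. The cause was not tested. It was called with each of 40 arrays left out (-0.38 to -0.31) and each of 7 slides left out (-0.36 to -0.31).

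The CAST call in conventional housing was also lost with no slide term (-0.27), slide as a random block (-0.29), the two-step analysis (-0.27) and array weights (-0.28), and without slides 1 (-0.32), 3 (-0.35), 4 (-0.30), 6 (-0.26) and 7 (-0.35). The call in alternative housing was lost without slides 1 (-0.36), 2 (-0.33), 5 (-0.26), 6 (-0.35) and 7 (-0.32). A left-out slide takes its pigs with it. With 1 pig left out these differences ran from -0.37 to -0.28 and from -0.43 to -0.28. The first call was lost without B conventional replicates 1, 2, 3, 7, 8 or 10 or LW conventional replicates 4, 5, 6, 7 or 8, and the second without B alternative replicates 11, 17 or 19 or LW alternative replicates 12, 15 or 17. The interaction turned to 0.11 without slide 5 and 0.027 without slide 7, and ran from -0.093 to 0.046 with 1 pig left out. The Cy5 difference was -0.0020 without background correction, a setting chosen after seeing the data.

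With the replicate number as a block beside slide, the CAST difference was -0.32 (adjusted p = 0.00197), that in conventional housing lost its call at -0.29 (adjusted p = 0.0628) and 2197 probes were called between breeds against 2583. The numbers pair pigs of different breeds, and only 3 of 20 pairs had a correlation above 0.1 (median -0.018), so that the pigs share only a number. Calls between breeds numbered 1760 (36.1%) among the most variable probes and 3787 with processed signals, which also raised the called cathepsins to 1 and the called other inhibitors to 2. The block lost 4 of 14 list calls. Without the 2 arrays least like the series matrix 3549 were called, and CAST differed by -0.35. Of the 10 probes most like CAST 6 were among the first 10 by rho and 4 with slide alone removed. Without background correction CAST differed by -0.33, a weak check beside the main offset of 50. Agilent's processed signals gave -0.53.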
